A study of Mus musculus with 12 samples.

Results

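This account covers 10 genes that mark resting and progenitor fibroblasts, *Pi16*, *Dpt*, *Cd34*, *Dpp4*, *Col15a1*, *Clec3b*, *Gsn*, *Smoc2*, *Cd248* and *Ly6a*, in soft tissue beside the mouse spine and in the scar that follows spine surgery. The genes were taken by name from a table of 18996 genes, all 10 were found, and all 10 passed the filter on low counts that left 14765 genes for testing. RNA was sequenced from whole tissue of 12 mice, 4 in each of 3 groups. No operation mice had no surgery and gave paraspinal soft tissue. SHAM mice had soft tissue beside the spine removed and kept the lamina, and Laminectomy mice had the lamina excised, and both gave soft and scar tissue. The study's methods give BALB/c mice of both sexes, a few weeks old. One of its figure legends places the sequenced scar tissue about a week after surgery. SHAM and Laminectomy are both operated groups, and by the labels they differ in the excision of the lamina, while either differs from No operation in the whole procedure and in the tissue sampled. The cell makeup of the samples may differ between the operated groups as well, and in bulk RNA it cannot be told apart from the excision.

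Fibroblasts of healthy connective tissue are not all alike. A population that expresses *Pi16* and *Dpp4* lies around vessels and in fascia in many organs and is regarded as a progenitor reserve, and a population that expresses *Col15a1* lies within the tissue proper. After injury, fibroblasts can become matrix-secreting cells that express *Postn*, *Acta2* or *Fap*, and resting genes are often lower in such cells. In bulk tissue, fewer cells of a type and less RNA per cell cannot be told apart.

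The 10 genes lie on 7 chromosomes of GRCm38, by the GENCODE annotation of that build. *Dpt* (gene 56429, chr1:164796644-164824266) and *Cd34* (gene 12490, chr1:194938819-194961279) are on chromosome 1. *Gsn* (gene 227753, chr2:35256380-35307892) and *Dpp4* (gene 13482, chr2:62330073-62412231) are on chromosome 2, and *Smoc2* (gene 64074, chr17:14279506-14404790) and *Pi16* (gene 74116, chr17:29317680-29330593) are on chromosome 17. *Col15a1* (gene 12819, chr4:47208161-47313167), *Clec3b* (gene 21922, chr9:123150946-123157432), *Ly6a* (gene 110454, chr15:74994877-74998031) and *Cd248* (gene 70445, chr19:5068078-5070682) each stand on a chromosome of their own. Antisense genes that the table does not list overlap exons of *Pi16*, *Cd34*, *Dpp4* and *Col15a1* on the opposite strand, and reads from them could not be separated if the counting ignored strand. *Ly6a* belongs to a family of similar genes, so reads shared with its relatives are uncertain.

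RefSeq promoter windows (GRCm38.p6) were at hand for 6 of the 10 genes, *Pi16*, *Dpt*, *Cd34*, *Dpp4*, *Col15a1* and *Gsn*. The 250 bases before the transcript start are shown for 4 of them, *Dpp4*, *Cd34* and *Gsn*, which were lower after laminectomy, and *Col15a1*, which was not, so that a reader can set the start regions beside each other. The *Dpp4* window is chr2:62412232-62412481 on the minus strand, that of *Cd34* is chr1:194938571-194938820, that of *Gsn*, the outermost of its 3 starts, is chr2:35256109-35256358 and that of *Col15a1* is chr4:47207762-47208011, all 3 on the plus strand. Each is printed 5′ to 3′ on the strand of the gene, and capitals mark matches on either strand to the TATA box (TATAAA), the GC box (GGGCGG), the core bound by KLF factors (CACCC), the core of the TEAD motif (CATTCC) or the AP-1 motif (TGANTCA).
Dpp4: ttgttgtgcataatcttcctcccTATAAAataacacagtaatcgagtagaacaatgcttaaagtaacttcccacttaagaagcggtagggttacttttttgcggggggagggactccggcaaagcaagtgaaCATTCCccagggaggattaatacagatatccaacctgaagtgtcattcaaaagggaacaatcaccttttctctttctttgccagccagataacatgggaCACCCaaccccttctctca
Cd34: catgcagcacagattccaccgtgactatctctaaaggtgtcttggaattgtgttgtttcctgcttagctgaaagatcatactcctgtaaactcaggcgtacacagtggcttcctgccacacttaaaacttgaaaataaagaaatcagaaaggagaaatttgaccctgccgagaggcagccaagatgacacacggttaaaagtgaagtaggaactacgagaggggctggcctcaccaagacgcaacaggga
Gsn: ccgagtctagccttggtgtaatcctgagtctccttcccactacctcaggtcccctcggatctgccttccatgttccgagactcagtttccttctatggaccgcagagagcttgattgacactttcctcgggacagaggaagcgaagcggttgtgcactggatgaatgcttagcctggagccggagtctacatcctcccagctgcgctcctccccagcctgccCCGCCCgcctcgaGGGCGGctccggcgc
Col15a1: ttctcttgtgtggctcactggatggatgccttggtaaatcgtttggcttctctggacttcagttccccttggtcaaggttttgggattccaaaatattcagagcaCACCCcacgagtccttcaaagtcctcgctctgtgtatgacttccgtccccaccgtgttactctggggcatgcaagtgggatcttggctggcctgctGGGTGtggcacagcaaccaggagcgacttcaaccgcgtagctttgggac
*Dpp4* had 1 match each to the TATA box, the TEAD core and the KLF core, at 227, 118 and 19 bases before the start. The *Gsn* window held 2 matches to the GC box, and that of *Col15a1* held 2 matches to the KLF core. At the other starts of *Gsn*, not printed, each window held 1 match to the GC box and 1 to the KLF core. The windows of *Pi16* and *Dpt* had 250 and 19 bases in annotated exons and were not printed. Each held 1 match to the KLF core. The *Cd34* window held none of the 5, and the AP-1 motif was in none of the 4. Among 32851 RefSeq windows of the same length, 12.4% held the TATA box, 32.7% the GC box, 52.0% the KLF core, 12.6% the TEAD core and 6.75% the AP-1 motif, so the matches are a description of the letters and not of binding.

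The 12 libraries held between 16802989 and 18077868 counts each, and at this depth the spread between mice, not counting, set the precision for these genes. Every level is in CPM, the count of a gene set relative to a common library size after TMM scaling for the composition of each library, and error is given as standard deviation (SD) over 4 mice or standard error (SE) of a fitted log2 fold change. A gene was called a DEG at an adjusted p below 0.05 with an absolute log2 fold change above 0.5 in edgeR's quasi-likelihood fit. No operation tissue was rich in muscle, since 10 myofibre genes summed to between 105080 and 147761 CPM there, against 2483 to 10203 CPM in SHAM and 3547 to 14517 CPM in the Laminectomy group. Mouse 1 of the No operation group stood apart, with *Postn*, a matrix protein of activated fibroblasts, at 2053 CPM against 99.6 to 330 CPM in the other 3 mice of that group, and *Lrrc15* at 155 CPM against 2.10 to 8.69 CPM. SHAM mouse 3 carried the highest adipocyte signal of the operated mice, with 6 adipocyte genes at 2286 CPM in sum.

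Against No operation mice, 7 of the 10 genes were not called in SHAM mice, which does not show that they were unchanged. *Gsn* and *Smoc2* were lower, 2 of 10 against 25.1% of all genes tested that were DEGs in that direction, and *Cd248* was higher, 1 of 10 against 25.7%. Laminectomy mice had 5 of 10 lower, *Pi16*, *Dpp4*, *Clec3b*, *Cd34* and *Gsn*, where 24.4% of all genes were lower DEGs, and none higher, where 24.2% of all genes were higher DEGs. The median log2 fold change of the 10 genes was -0.17 in SHAM and -0.90 in Laminectomy mice, while the median of all genes tested lay at 0.00 and 0.01. These 2 comparisons share the No operation mice. Between Laminectomy and SHAM mice, edgeR called 0 of the 10 genes and 0 of 14765 genes, with 0.0698 as its smallest adjusted p. At an unadjusted p below 0.05, edgeR placed 7 of 10 lower (*Pi16*, *Dpp4*, *Dpt*, *Cd34*, *Ly6a*, *Cd248* and *Gsn*), against 9.03% of all genes, and 1 higher (*Smoc2*), against 6.95%. DESeq2 called 5 of these lower (*Pi16*, *Dpp4*, *Cd34*, *Ly6a* and *Cd248*), against 2.28% of all genes, and *Smoc2* higher, against 1.79%. The direct comparison of the operated groups therefore depended on the tool, and its member values are given mouse by mouse.

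**Figure D1:**
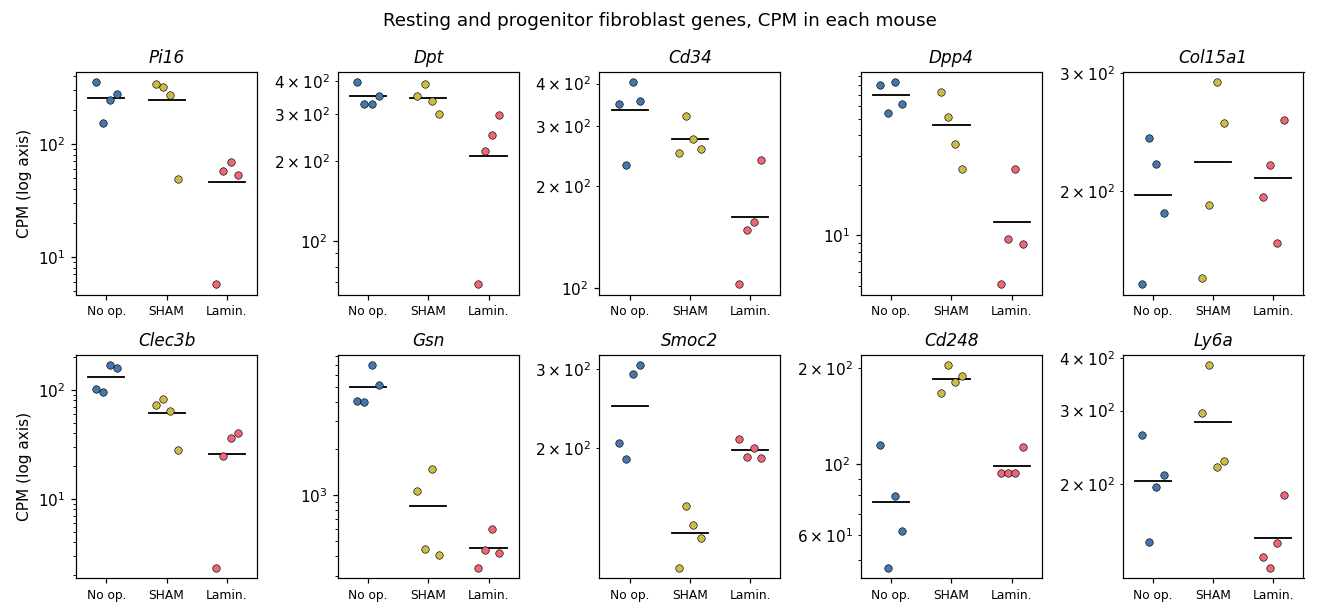
CPM of each of the 10 genes in each mouse on log axes, with No operation, SHAM and Laminectomy mice from left to right in replicate order and a bar at each group's mean (n = 4). *Pi16*, *Dpp4* and *Clec3b* sit lowest in Laminectomy mice, *Gsn* drops in both operated groups, *Cd248* is highest in SHAM mice, and *Col15a1* overlaps across all 3 groups.

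*Pi16*, which encodes a secreted peptidase inhibitor and names the adventitial progenitor population, was at 353, 154, 242 and 274 CPM in the 4 No operation mice. In SHAM mice it was at 338, 321, 269 and 49.3 CPM. In Laminectomy mice it was at 5.72, 57.8, 69.0 and 53.3 CPM. All Laminectomy mice lay below all No operation mice, and 3 of the 4 SHAM mice lay in the range of unoperated tissue, while SHAM mouse 4 fell among the Laminectomy values. *Pi16* was thus 5.50-fold lower in Laminectomy than in No operation mice (log2 fold change -2.46, SE 0.695, adjusted p = 0.00969, edgeR), with a difference of only -0.07 (SE 0.657, adjusted p = 0.937, edgeR) between SHAM and No operation mice. That last value changed sign, to 0.28 without SHAM mouse 4, to 0.13 without No operation mouse 1 and to 0.20 with plain library totals, and was never called. Against SHAM mice, Laminectomy mice were lower by 2.39 on the log2 scale in the fit (log2 fold change -2.39, SE 0.693, unadjusted p = 0.00504, adjusted p = 0.15, edgeR), and the adjusted p was 0.00895 with DESeq2. An exact permutation test of the 8 values gave p = 0.114, with SHAM mouse 4 inside the range of the other group.

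*Dpp4*, a cell-surface peptidase and the other marker of the same population, had its highest mean in No operation and its lowest in Laminectomy mice. It was at 79.7, 54.0, 83.3 and 61.3 CPM in the No operation group and at 72.5, 51.0, 35.2 and 24.9 CPM in the SHAM group. In Laminectomy mice it was at 5.08, 9.51, 24.9 and 8.86 CPM. Laminectomy mice lay below every No operation mouse, and only mouse 3 reached the lowest SHAM value. The fall against No operation mice was 5.75-fold (log2 fold change -2.52, SE 0.462, adjusted p = 0.000728, edgeR). SHAM mice differed from No operation mice by -0.60 (SE 0.435, adjusted p = 0.249, edgeR), which was not called under TMM. Between the operated groups the log2 fold change was -1.92 (SE 0.454, unadjusted p = 0.00125, adjusted p = 0.112, edgeR; adjusted p = 0.00249, DESeq2), with an exact permutation p of 0.0571.

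*Clec3b*, which encodes the plasminogen-binding protein tetranectin, was at 102, 96.5, 168 and 159 CPM in the No operation group. SHAM mice had 72.7, 82.0, 63.8 and 28.2 CPM, and Laminectomy mice had 2.33, 24.5, 36.1 and 40.3 CPM. Every operated mouse lay below every unoperated mouse, and SHAM mouse 4 was the only SHAM mouse within the Laminectomy range. Only the Laminectomy difference passed the test, 5.09-fold lower (log2 fold change -2.35, SE 0.626, adjusted p = 0.00715, edgeR). For SHAM mice it was -1.09 (SE 0.601, adjusted p = 0.134, edgeR), and this became a DEG without Laminectomy mouse 1 (adjusted p = 0.0122, edgeR). In a fit of the 2 groups alone it was also a DEG (adjusted p = 0.0211, edgeR). *Dpt*, the matrix protein dermatopontin that broadly marks quiescent fibroblasts, was steadier. Its values were 396, 328, 328 and 351 CPM in the No operation group, 352, 389, 335 and 299 CPM in the SHAM group, and 68.6, 219, 251 and 297 CPM in the Laminectomy group. All Laminectomy mice lay below all mice of the other groups, mouse 4 by a small margin. No call resulted by edgeR (log2 fold change against No operation -0.75, SE 0.328, adjusted p = 0.068), while DESeq2 called that difference (-0.73, adjusted p = 0.0465), and without Laminectomy mouse 1 the value was -0.45, so mouse 1 carried much of its size.

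*Cd34* and *Ly6a* encode surface antigens used to sort mesenchymal progenitors, CD34 and Sca-1, and both are also made by endothelial cells. *Cd34* was at 348, 231, 404 and 357 CPM in the No operation group, 249, 321, 275 and 256 CPM in the SHAM group, and 103, 148, 157 and 239 CPM in the Laminectomy group. Laminectomy mice were all below SHAM mice, and overlapped No operation mice only through Laminectomy mouse 4. The fall against No operation mice was 2.07-fold (log2 fold change -1.05, SE 0.240, adjusted p = 0.00287, edgeR), and that against SHAM mice was -0.77 (SE 0.239, unadjusted p = 0.00771, adjusted p = 0.164, edgeR). *Ly6a* took a different course. It was at 262, 146, 197 and 211 CPM in the No operation group, 297, 385, 220 and 227 CPM in the SHAM group, and 134, 126, 144 and 189 CPM in the Laminectomy group. Laminectomy mice were all below SHAM mice, by -0.93 on the log2 scale (SE 0.221, unadjusted p = 0.00136, adjusted p = 0.113, edgeR), with the No operation mean between them, No operation mice overlapping both, and neither operated group called against them (0.47 and -0.46). Those 2 values lay near the threshold. *Ly6a* was called higher in SHAM mice without No operation mouse 1 (0.61, adjusted p = 0.0368, edgeR), and lower in Laminectomy mice without No operation mouse 2 (-0.59, adjusted p = 0.0356, edgeR) or without Laminectomy mouse 4 (-0.59, adjusted p = 0.0471, edgeR). The 10 endothelial genes summed to 878 to 1118 CPM in No operation, 654 to 899 CPM in SHAM and 601 to 927 CPM in the Laminectomy group, so the operated groups overlapped in that signal, and its part in *Cd34* and *Ly6a* was not tested.

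*Cd248*, the stromal receptor endosialin, was the only member called higher in an operated group under TMM scaling. It was at 115, 47.4, 79.7 and 61.8 CPM in the No operation group and at 167, 204, 181 and 190 CPM in the SHAM group. In Laminectomy mice it was at 93.8, 94.2, 93.6 and 113 CPM. SHAM mice stood above all other mice, a 2.44-fold increase over No operation mice (log2 fold change 1.29, SE 0.220, adjusted p = 0.000406, edgeR). Laminectomy mice overlapped No operation mice (log2 fold change 0.38, SE 0.217, adjusted p = 0.155, edgeR), and without No operation mouse 1, the mouse with high *Postn*, that value was 0.65 and was called (adjusted p = 0.00608, edgeR). The operated groups did not overlap and differed by -0.91 (SE 0.218, unadjusted p = 0.00139, adjusted p = 0.113, edgeR; adjusted p = 0.00616, DESeq2).

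*Smoc2*, a calcium-binding matricellular protein, went the opposite way to *Cd248*. It was at 205, 189, 293 and 305 CPM in the No operation group, fell to 109, 149, 135 and 127 CPM in the SHAM group, and was at 209, 191, 200 and 191 CPM in the Laminectomy group. SHAM mice lay below all others. The fall in SHAM mice was 1.91-fold (log2 fold change -0.93, SE 0.162, adjusted p = 0.000441, edgeR), and Laminectomy mice did not pass the test against No operation mice (-0.33, SE 0.161, adjusted p = 0.0976, edgeR). Laminectomy mice were above SHAM mice by 0.61 (SE 0.161, unadjusted p = 0.00287, adjusted p = 0.135, edgeR; adjusted p = 0.0148, DESeq2), the only member with that direction and no overlap. Of the 10 genes, 4 had all Laminectomy mice below all SHAM mice (*Dpt*, *Cd34*, *Cd248* and *Ly6a*), where 5.07% of all genes did, and *Smoc2* alone had them above, where 5.05% of all genes did. In exact permutation tests of 4 mice against 4, run for 12 genes (the 10 members, *Fap* and *Pdgfra*), these 5 genes, *Fap* and *Pdgfra* reached 0.0286, the smallest p that the design allows.

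*Col15a1*, a collagen of basement membrane zones that marks fibroblasts within the tissue, did not separate the groups. It was at 146, 240, 220 and 186 CPM in the No operation group, 149, 191, 291 and 253 CPM in the SHAM group, and 196, 219, 168 and 255 CPM in the Laminectomy group. Relative to unoperated tissue the log2 fold change was 0.16 after sham surgery and 0.08 after laminectomy, and it was -0.08 between the operated groups, each with an SE of 0.221. The 95% interval of the Laminectomy value ran from -0.35 to 0.52, so a fall of the size seen for *Pi16* lay outside it. Pericyte and endothelial cells also make *Col15a1*.

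*Gsn*, the actin-severing protein gelsolin, was the most abundant member and had the largest fall. It was at 4082, 4003, 6939 and 5179 CPM in the No operation group. SHAM mice had 1059, 446, 1478 and 408 CPM, and Laminectomy mice had 338, 442, 601 and 420 CPM. No operated mouse came near an unoperated one, and the operated groups overlapped. The fall was 5.96-fold in SHAM mice (log2 fold change -2.57, SE 0.415, adjusted p = 0.000272, edgeR) and 11.2-fold in Laminectomy mice (-3.49, SE 0.432, adjusted p = 6.01e-05, edgeR). *Gsn* is also made by muscle and fat. SHAM mice 1 and 3, with the higher *Gsn*, had 596 and 2286 CPM of adipocyte genes in sum against 264 and 351 CPM in the SHAM group 2 and 4, and the muscle signal fell with *Gsn* in both operated groups. Within the SHAM group the muscle signal did not follow *Gsn*, since mouse 1 had the lowest sum of myofibre genes, 2483 CPM, and mouse 4, lowest in *Gsn*, had the highest, 10203 CPM. The part of either in *Gsn* was not tested.

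**Figure D2:**
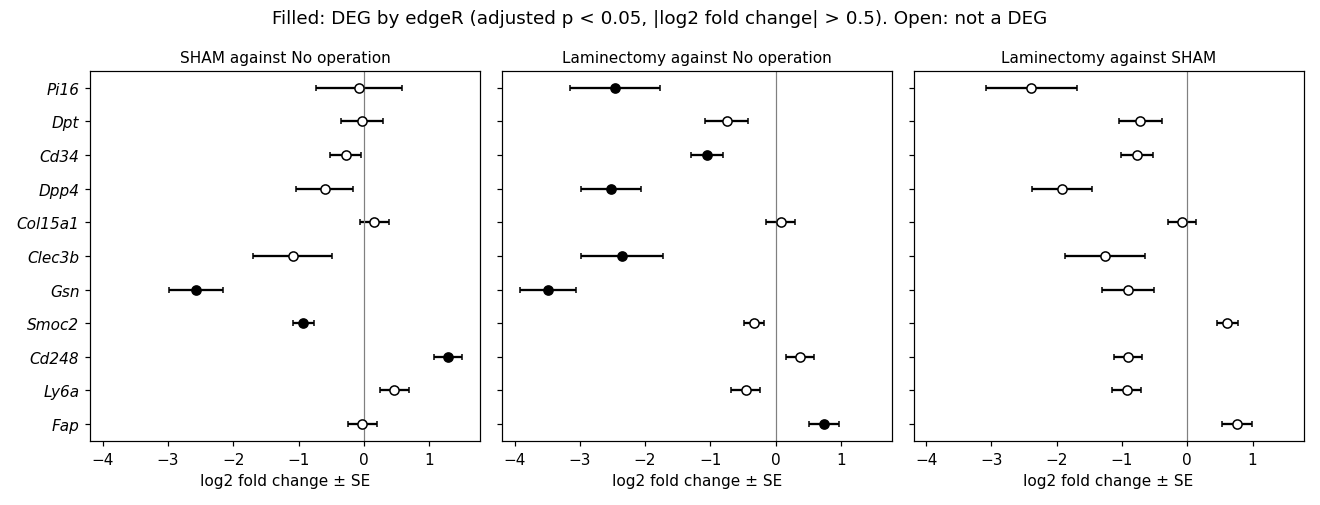
Fitted log2 fold change with SE (bars) of the 10 genes and *Fap* in the 3 comparisons, where filled points are DEGs by edgeR and open points are not. Laminectomy against No operation has 5 filled members to the left of 0 and none to the right, and in Laminectomy against SHAM all points are open, with *Smoc2* and *Fap* to the right.

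Per length, the order of the members changed after surgery. In CPM per kilobase of exon, *Gsn* led in every group, with means of 1600 in No operation, 269 in SHAM and 143 in Laminectomy mice. *Dpt* and *Ly6a* took the next places in every group, at 203 and 169 in No operation mice, and their ranges over mice overlapped (190 to 230 and 121 to 217). *Clec3b* had rank 4 in No operation mice, at 132, and rank 7 in Laminectomy mice, at 26.0. *Pi16* went from rank 6, at 40.2, to rank 9, at 7.30, and *Dpp4* was last in every group, at 7.27 in SHAM and 1.91 in Laminectomy mice. *Cd248* went from rank 9 in No operation mice, at 29.2, to rank 4 in SHAM mice, at 71.1, and rank 4 in Laminectomy mice, at 37.9. *Col15a1* moved from rank 8 in No operation to rank 5 in Laminectomy mice with means of 31.1 and 33.0. In No operation mice the ranges of *Cd34*, *Pi16*, *Smoc2*, *Col15a1* and *Cd248*, at ranks 5 to 9, overlapped, so that order was not separated beyond the spread. In Laminectomy mice each of *Cd248*, *Col15a1*, *Smoc2*, *Clec3b* and *Cd34*, at ranks 4 to 8, overlapped the next in order, with *Clec3b* from 2.35 to 40.7.

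Some of the members also varied together among mice of the same group, and others did not. With group means removed, the 45 pairs of members had a median Pearson r of 0.21 over 12 mice, from -0.60 (*Dpp4* with *Col15a1*) to 0.94 (*Dpt* with *Clec3b*), with 13 pairs above 0.5 and 11 below 0. *Pi16* had r = 0.90 with *Clec3b*, 0.83 with *Dpt* and 0.78 with *Dpp4*, while *Cd248* had its highest value with *Ly6a*, 0.68. These points share libraries and tissue pieces, and Laminectomy mouse 1 and SHAM mouse 4, low in *Pi16* and *Clec3b*, weigh in them.

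**Figure D3:**
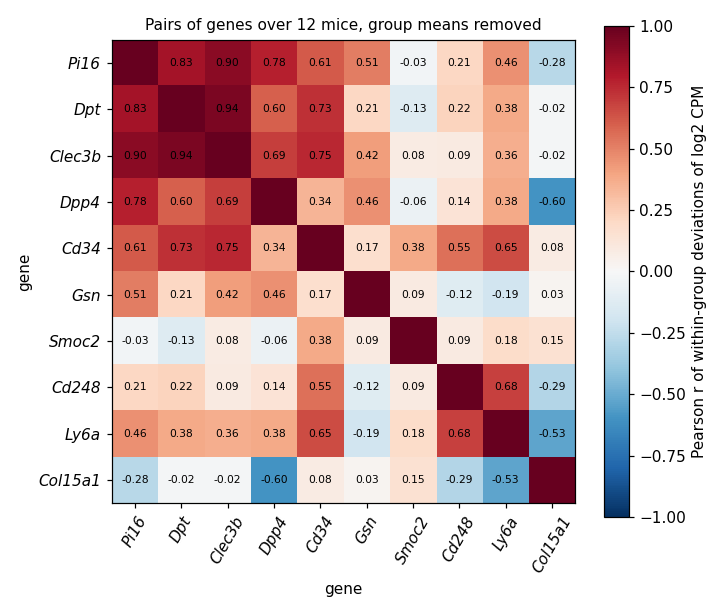
Pearson r between pairs of the 10 genes over 12 mice, computed on log2 CPM after removing each group's mean (red positive, blue negative). *Pi16*, *Dpt*, *Clec3b*, *Dpp4* and *Cd34* form a block of positive values, up to 0.94, and *Col15a1* is mostly near or below 0.

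Genes outside the list with the most similar levels over the 12 mice, group differences included, were as follows. *Pi16* was most like *Nova1* (r = 0.976), *Podn* (0.972) and *Ccl11* (0.971), and *Dpp4* was most like *Ccl11* (0.945), *Gpc3* (0.944) and *Akap13* (0.940). *Ccl11*, the eosinophil chemoattractant eotaxin, was at 26.3 to 39.8 CPM in No operation, 10.5 to 35.2 CPM in SHAM and 1.22 to 8.03 CPM in the Laminectomy group, a DEG of Laminectomy against No operation (log2 fold change -2.55, adjusted p = 0.000947, edgeR). *Clec3b* was most like *Tnxb* (0.976), *Cd55* (0.958) and *Podn* (0.950). *Tnxb*, the matrix protein tenascin X, was at 573 to 1132 CPM in the No operation group, 211 to 418 CPM in the SHAM group and 5.77 to 137 CPM in the Laminectomy group. *Dpt* was nearest to *Lrrn4cl* (0.937), *Gm29804* (0.935) and *Nova1* (0.927), and *Cd34* to *Ly6c1* (0.962), *Adam33* (0.927) and *Islr2* (0.924). *Gsn* was nearest to *Maob* (0.988), *Dhdh* (0.987) and *Mgl2* (0.983), and *Col15a1* to *Acsf2* (0.846), *Hip1* (0.842) and *Mcam* (0.791), the last a marker of mural cells. The nearest of *Smoc2* were *Adamtsl3* (0.942), *Noa1* (0.934) and *Pter* (0.932). For *Cd248* they were *Osr1*, a fibroblast transcription factor (0.967), *Lrrc32* (0.953) and *Rab11fip5* (0.950), and for *Ly6a* they were *Hdac7* (0.939), *Trio* (0.902) and *Zcchc24* (0.901). The search ran over 10617 genes of at least 10 CPM on average, and the r values are the highest of that many.

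*Dpp4* has a close relative next to it. *Fap*, the fibroblast activation protein that the study targets, is a peptidase of the same family (gene 14089, chr2:62500943-62574075), 88.7 kilobases from *Dpp4* on the same strand, and the table lists *Gcg* between them. *Fap* was at 38.7, 88.9, 61.5 and 41.1 CPM in the No operation group, 47.3, 58.3, 60.1 and 61.7 CPM in the SHAM group, and 93.9, 108.5, 98.0 and 83.5 CPM in the Laminectomy group. Laminectomy mice were above all SHAM mice, by 0.76 on the log2 scale (SE 0.228), which edgeR did not call (adjusted p = 0.158) and DESeq2 did (adjusted p = 0.0419). They were 1.67-fold above No operation mice in the mean (log2 fold change 0.74, SE 0.229, adjusted p = 0.0156, edgeR), with No operation mouse 2 in their range. On the scale of fibroblast reference genes described further on, this difference was 0.52 and was not called (SE 0.264, adjusted p = 0.117, edgeR). SHAM and No operation mice differed by -0.02 (SE 0.228, adjusted p = 0.951, edgeR). Set against *Dpp4* in the same mouse, *Fap* was 0.485 to 1.65 times its level in No operation mice, 0.653 to 2.48 times in SHAM mice and 3.93 to 18.5 times in Laminectomy mice. The ratio of every Laminectomy mouse exceeded that of every other mouse, as a description of neighbours that moved in opposite directions.

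**Figure D4:**
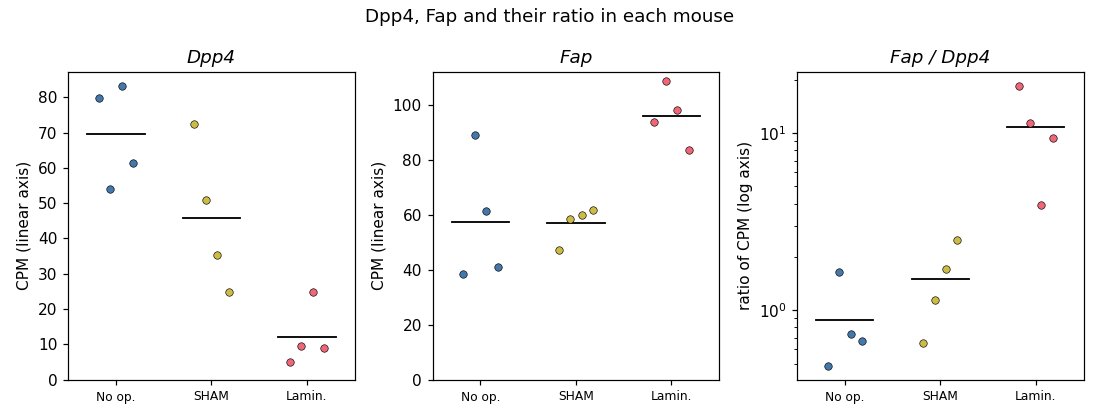
*Dpp4* and *Fap* in CPM (linear axes from 0) and the ratio of *Fap* to *Dpp4* (log axis) in each mouse, with a bar at each group's mean (n = 4). The ratio runs from 0.485 to 2.48 in No operation and SHAM mice and from 3.93 to 18.5 in Laminectomy mice.

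To ask whether members changed relative to transcripts that most fibroblasts share, the libraries were also scaled to 6 reference genes (*Pdgfra*, *Dcn*, *Lum*, *Pcolce*, *Serpinf1* and *Mmp2*) in place of TMM. This scaling moved the median of all genes to -0.52 for SHAM and -0.21 for Laminectomy against No operation, and to 0.30 between the operated groups, so counts of calls are read against the background on the same scale. On it, 5 of 10 members were lower in SHAM mice (*Gsn*, *Smoc2*, *Clec3b*, *Dpp4* and *Cd34*), where 45.0% of all genes were lower DEGs, and *Cd248* was higher, where 12.1% were. In Laminectomy mice 7 of 10 were lower (*Pi16*, *Dpp4*, *Clec3b*, *Dpt*, *Cd34*, *Ly6a* and *Gsn*), where 30.8% of all genes were, and 0 were higher, where 16.6% were. *Pi16* had a log2 fold change of -2.76 against No operation mice on this scale (SE 0.613, adjusted p = 0.00224, edgeR), *Dpp4* had -2.75 (SE 0.392, adjusted p = 9.15e-05, edgeR), and *Dpt*, not called under TMM, had -1.04 (SE 0.302, adjusted p = 0.0114, edgeR). The signs of *Col15a1* in all 3 comparisons and of *Ly6a* in SHAM mice turned under this scaling (-0.33, -0.15, 0.19 and -0.05), none of them called. Between the operated groups 0 of the 10 genes and 0 of all genes were called by edgeR, with 2893 genes at an unadjusted p below 0.05. The reference genes were not constant themselves: under TMM 4 of 6 were higher and *Dcn* lower in SHAM mice, and 3 were higher and *Dcn* lower in Laminectomy mice.

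*Pdgfra*, the receptor that marks most fibroblasts, was at 205, 108, 197 and 142 CPM in the No operation group, 331, 251, 267 and 329 CPM in the SHAM group, and 152, 169, 203 and 241 CPM in the Laminectomy group. Divided by *Pdgfra* in the same mouse, *Pi16* was 1.23 to 1.92 in No operation, 0.150 to 1.28 in SHAM and 0.0376 to 0.343 in Laminectomy mice. For *Dpp4* these ratios were 0.389 to 0.499, 0.0756 to 0.219 and 0.0334 to 0.123. *Pdgfra* itself was higher in SHAM than in No operation mice (log2 fold change 0.85, SE 0.213, adjusted p = 0.00466, edgeR), so the ratios of SHAM mice have a higher divisor, and it was lower in every Laminectomy mouse than in every SHAM mouse (-0.62, adjusted p = 0.198, edgeR). The 4 members whose CPM did not overlap between the operated groups with Laminectomy mice below did overlap as ratios to *Pdgfra*. In SHAM and Laminectomy mice these ratios were 0.754 to 1.28 and 0.675 to 0.991 for *Cd34*, and 0.909 to 1.55 and 0.451 to 1.30 for *Dpt*. They were 0.690 to 1.53 and 0.712 to 0.880 for *Ly6a*, and 0.505 to 0.812 and 0.461 to 0.616 for *Cd248*. *Smoc2*, higher in Laminectomy mice, stayed without overlap, at 0.328 to 0.593 in SHAM and 0.790 to 1.38 in Laminectomy mice.

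Other genes of the same cell populations are set beside the members. The lists here and below, like the members, were chosen with earlier results of these data known. Their counts are therefore a description and not independent support. Of 13 further progenitor genes, 5 were higher and 2 lower in SHAM mice, and 1 was higher and 7 lower in Laminectomy mice, with median log2 fold changes of 0.35 and -1.62 beside 0.00 and 0.01 for all genes. Among all genes tested, 25.7% were higher and 25.1% lower DEGs in SHAM mice, and 24.2% higher and 24.4% lower in Laminectomy mice. Between the operated groups all 13 had a fitted value below 0, 8 at an unadjusted p below 0.05 (beside 9.03% of all genes lower at that level) and 0 as DEGs by edgeR. *Igfbp6*, which binds insulin-like growth factors, fell the most in both operated groups, from 199 to 432 CPM in the No operation group to 63.1 to 108 CPM in the SHAM group (log2 fold change -1.86, adjusted p = 0.000495, edgeR) and 20.1 to 48.5 CPM in the Laminectomy group (-2.85, adjusted p = 4.78e-05, edgeR). *Emilin2*, an elastic-fibre protein, rose from 53.2 to 120 CPM in the No operation group to 224 to 481 CPM in the SHAM group (1.95, adjusted p = 0.00031, edgeR) and 124 to 232 CPM in the Laminectomy group (0.96, adjusted p = 0.0194, edgeR). *Fbn1* and *Mfap5*, both of microfibrils, were higher in SHAM mice (1.48, adjusted p = 0.0105, and 0.89, adjusted p = 0.047, edgeR) and were not called in Laminectomy mice (1.01 and 0.15). Without No operation mouse 1, where *Fbn1* was at 994 CPM against 214 to 375 CPM in the other 3, these values were 2.21 and 1.38 in SHAM and 1.74 and 0.63 in Laminectomy mice, and *Fbn1* was then called in the latter (adjusted p = 0.000189, edgeR). The progenitor list therefore did not move as a whole in SHAM mice, and its risers included matrix genes.

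Of 10 further genes of resident fibroblasts, 0 were higher and 3 lower in SHAM mice, and 1 was higher and 6 lower in Laminectomy mice, with medians of -0.82 and -1.82. The 3 lower in SHAM mice are near the 25.1% of all genes, and the 6 lower in Laminectomy mice stand beside 24.4%. *Hmcn2*, a basement membrane protein, was at 232 to 568 CPM in No operation, 32.5 to 80.4 CPM in SHAM and 6.04 to 68.5 CPM in the Laminectomy group and fell in both operated groups (-3.18, adjusted p = 0.000984, and -3.20, adjusted p = 0.00107, edgeR). *Abca8a*, a lipid transporter, fell as much (-3.18, adjusted p = 0.00047, and -3.54, adjusted p = 0.000294, edgeR). *Apod*, the lipid carrier apolipoprotein D, was lower in Laminectomy mice (-2.15, adjusted p = 0.0137, edgeR) and was at 57.0 to 440 CPM in the SHAM group, a spread that crossed both other groups. *Inmt*, a methyltransferase, had the largest fall of this list in Laminectomy mice (-5.47, adjusted p = 0.0037, edgeR), with 0 to 0.932 CPM there against 10.6 to 20.3 CPM in the No operation group, so its size rests on very few counts. *Mme*, the peptidase neprilysin, was the riser in Laminectomy mice (0.83, adjusted p = 0.041, edgeR), a call that was lost without No operation mouse 1 (0.67, adjusted p = 0.103, edgeR).

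Among 9 tested transcription factors of fibroblasts, 2 were higher and 3 lower in SHAM mice and 1 was higher and 3 lower in Laminectomy mice, with medians of 0.40 and -0.15. For higher and lower calls the shares of all genes were 25.7% and 25.1% in SHAM and 24.2% and 24.4% in Laminectomy mice, so these counts were near the background. The genes that rose were *Twist2* in SHAM mice (1.86, adjusted p = 0.000233, edgeR), where its 9.69 to 22.0 CPM lay above the 3.58 to 4.93 CPM of No operation mice, and *Osr1* in SHAM (1.51, adjusted p = 0.0002, edgeR) and Laminectomy mice (0.65, adjusted p = 0.0297, edgeR). *Twist2* was not called in Laminectomy mice (0.07, adjusted p = 0.861, edgeR). *Ebf2* fell in both operated groups (-0.93, adjusted p = 0.0139, and -0.97, adjusted p = 0.0117, edgeR) and *Meox2* in SHAM mice (-0.85, adjusted p = 0.0204, edgeR). *Twist2*, *Osr1* and *Ebf2* were named after their values were seen, so that each called gene of this list is given. *Klf4* and *Klf2*, KLF factors linked to quiescence, were lower in Laminectomy than in No operation mice (-1.09, adjusted p = 0.00221, and -0.91, adjusted p = 0.00397, edgeR), and *Klf4* was also lower in SHAM mice (-0.59, adjusted p = 0.0479, edgeR). *Prrx1*, a factor of the mesenchymal lineage, was not called in either operated group (0.40 in SHAM mice, where its adjusted p was 0.0439 but its size was under the fold threshold, and -0.15 in Laminectomy mice, edgeR). Of 12 genes of activated fibroblasts, 8 rose in SHAM mice and 10 rose in Laminectomy mice, with 0 lower in both, medians of 1.87 and 1.98, and 0 DEGs between the operated groups. *Postn*, at 99.6 to 2053 CPM in the No operation group, rose to 3175 to 4422 CPM in the SHAM group (2.56, adjusted p = 0.0123, edgeR) and 4098 to 5751 CPM in the Laminectomy group (2.84, adjusted p = 0.00798, edgeR), and *Lox*, which crosslinks collagen, rose in both (adjusted p = 0.00137 and 0.00368, edgeR), by 2.13 in the latter. Both sizes rested on No operation mouse 1, since without it the *Postn* values were 4.26 and 4.54, the *Lox* values were 3.29 and 2.92, and 11 and 12 of the 12 activated genes were called higher. *Tnc*, the matrix protein tenascin C, rose by 1.63 and 1.83 (adjusted p = 0.00122 and 0.00068, edgeR).

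**Figure D5:**
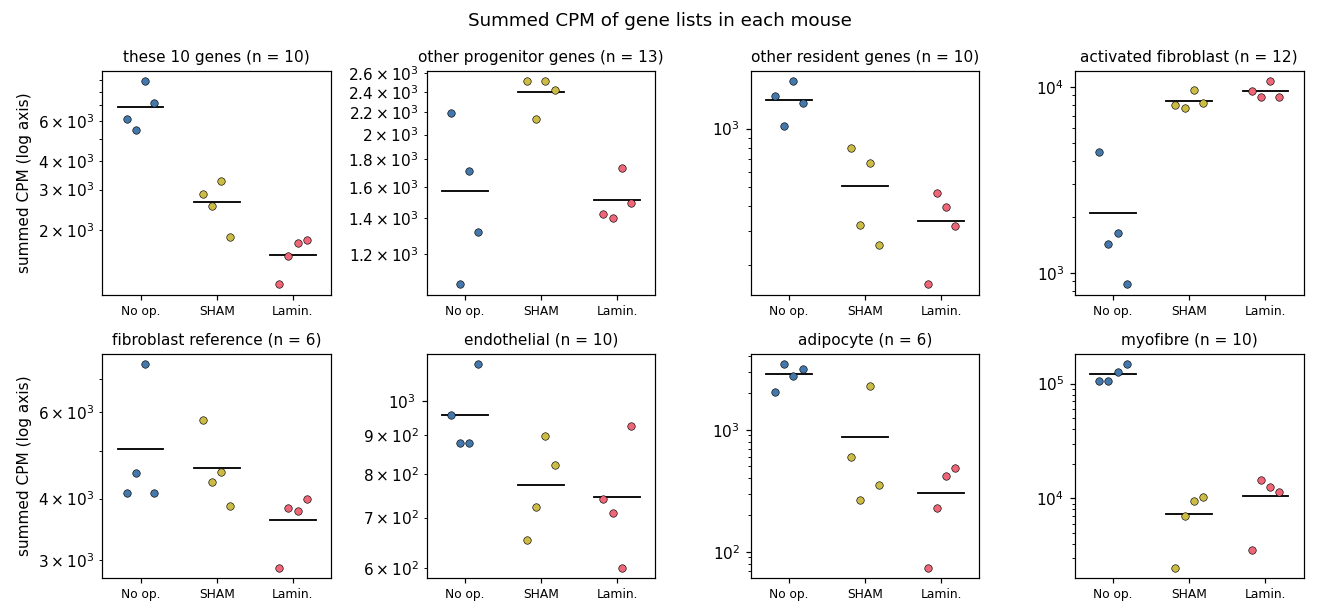
Summed CPM of 8 gene lists in each mouse on log axes, with a bar at each group's mean (n = 4) and the number of genes in each panel's title. The 10 genes sum to 5488 to 8955 CPM in No operation, 1861 to 3283 CPM in SHAM and 1155 to 1806 CPM in the Laminectomy group, a sum dominated by *Gsn*, while the activated genes rise in both operated groups and muscle and fat genes fall.

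Markers of other cells in the same tissue pieces are given beside the members, where 25.7% of all genes were higher and 25.1% lower in SHAM mice, and 24.2% higher and 24.4% lower in Laminectomy mice. All 10 myofibre genes fell in both operated groups. Of 6 adipocyte genes, 3 fell in SHAM and 6 in Laminectomy mice, with sums of 2029 to 3452 CPM in No operation, 264 to 2286 CPM in SHAM and 74.0 to 485 CPM in the Laminectomy group. Of 8 mural cell genes, 7 fell in SHAM and 4 in Laminectomy mice, and of 10 endothelial genes 3 fell in each with none higher, a share near that of all genes (median log2 fold changes of -0.12 and -0.17). Macrophage genes rose, 8 of 8 in SHAM and 7 of 8 in Laminectomy mice, with sums of 5206 to 9388 CPM and 3730 to 6099 CPM against 791 to 2126 CPM in the No operation group. Counts were small in the remaining lists. Of 5 tenocyte genes 3 fell in SHAM mice and 1 in Laminectomy mice, of 6 satellite cell genes 1 rose in each group, with 2 lower in SHAM and 1 in Laminectomy mice, and the 8 tested lymphocyte genes gave 4 higher and 1 lower in SHAM and 3 higher and 1 lower in Laminectomy mice. Laminectomy mouse 1, lowest of its group in *Pi16*, *Dpp4*, *Clec3b*, *Dpt*, *Cd34* and *Gsn*, was also lowest in adipocyte (74.0 CPM) and myofibre (3547 CPM) sums and highest in the macrophage sum (6099 CPM). The part of these cell types in the members' values was not tested, and the tissue taken, the surgery and the makeup of the pieces cannot be told apart.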

How the data were processed

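RNA of 12 mice was sequenced by the authors from stranded poly(A) libraries, aligned to GRCm38 with STAR and counted per gene with featureCounts at default settings. The deposited table holds estimated counts, since 10.22% of its values are not whole, and the authors did not describe the step that made them so. The designs assumed whole counts, and values were rounded before testing. The submitters state that 3 mice per group were chosen by RNA quality for their own tests without naming them, so all 4 were used. Groups and replicate numbers came from the library names in the sample descriptions.

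Genes were filtered by filterByExpr (14765 kept), scaled by TMM and fitted over all 12 mice with glmQLFit and glmQLFTest (edgeR 4.0.16, R 4.3.3), adjusted by Benjamini-Hochberg over all genes tested. The SE is the log2 fold change divided by the square root of F. DESeq2 1.42.0, other scalings, filters and leaving out each mouse were alternatives. Exact permutation tests were two-sided and used log2 CPM (prior count 2). The members and the gene lists were chosen with earlier results of these data known. Genes named beside the members were *Fap*, *Pdgfra*, up to 4 genes of highest mean CPM in each list, the largest called rise and fall of the progenitor, resident and activated fibroblast lists, and the 3 genes most like each member by Pearson r. Nothing in the labels says whether mice shared a surgery day or cage, and p-values measure the spread between these mice. Deviations of mice with the same number in different groups had r from -0.23 to 0.35, with 7 of 12 pairs above 0.1. Mice with different numbers were not compared, so these values cannot show whether the numbers pair the mice. The main fit used no block, and a fit with the replicate number as a block was an alternative. Promoter windows are from RefSeq and coordinates from GENCODE, both of GRCm38.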

Additional observations from a re-analysis of the deposited data

Results flagged for a closer look

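*Cd248* in Laminectomy mouse 4, at 112.9 CPM, stood apart from the other 3 mice of its group, which lay between 93.6 and 94.2 CPM. Its gap to the nearest mouse was 0.968 of the group's range, above Dixon's critical value for 4 samples. The 3 other mice lay unusually close together, and mouse 4 remained below every SHAM mouse. It was the only such value among 36 sets of 4 mice tested, where chance alone gives about 1 in 20.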

How the results depend on the processing

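In SHAM and Laminectomy mice against No operation mice, 7502 and 7183 of all 14765 genes tested were DEGs in either direction. The count of members called, also in either direction, was 3 for SHAM and 5 for Laminectomy mice, near or below that background. It ran from 3 to 4 and from 5 to 7 when each mouse was left out in turn. Between Laminectomy and SHAM mice it was 0 in each such fit and 6 with DESeq2, and the cause of that difference was not tested. Scaled to the fibroblast reference genes, the counts were 6 and 7 and ran from 5 to 7 and from 6 to 8. On that scale 8425 and 7002 of all 14765 genes were DEGs, so the 6 in SHAM mice was near the background. Between the operated groups the count was 0, and it was 1 without Laminectomy replicate 3 (a range of 0 to 1 over the mice left out). With *Pdgfra* alone as the reference it was 3, a count given without the share of all genes. With the replicate number as a block, the counts were 3, 5 and 0, as without it, and the block changed no count on the reference scale.

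Of 600 alternative values of single log2 fold changes, 574 kept direction and side of the threshold, 16 became DEGs and 10 changed sign, all of these small and uncalled. With plain library totals, which moved the median of all genes to 0.25 in SHAM and 0.33 in Laminectomy mice, SHAM against No operation gave 0.20 for *Pi16* and 0.23 for *Dpt*, *Ly6a* became a DEG in SHAM mice (0.74) and *Cd248* in Laminectomy mice (0.71), and the exact permutation p of *Col15a1* between the operated groups was 1 with the sign turned. Over the mice left out, values crossed 0 for *Pi16* (-0.26 to 0.28) and *Dpt* (-0.09 to 0.04) in SHAM mice, and for *Col15a1* in Laminectomy mice (-0.04 to 0.19) and between the operated groups (-0.22 to 0.08). In SHAM mice, DESeq2 called 5 activated genes higher where edgeR called 8, and 4 further progenitor genes lower where edgeR called 2, a count that was 5 in a fit of the 2 groups alone and without Laminectomy replicate 1. The spread between mice, not depth, set the limit for *Dpt* (SE 0.328).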
